A study of Mus musculus with 16 samples.

Results

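The genes described here are the cyclins and kinases that act in the G1 phase of the cell cycle, namely the D-type cyclins Ccnd1, Ccnd2 and Ccnd3 with their kinases Cdk4 and Cdk6, and the E-type cyclins Ccne1 and Ccne2 with their kinase Cdk2. They were taken by name and are 8 of the 22375 genes in the deposited count tables. All 8 were found in the tables, and all 8 passed the filter on low counts.

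A cyclin-dependent kinase (CDK) is inactive until a cyclin binds it. Early in G1 the D-type cyclins bind Cdk4 and Cdk6, and later the E-type cyclins bind Cdk2. These kinases phosphorylate the retinoblastoma protein and its relatives, which releases the E2F factors that switch on the genes of DNA replication, and CDK inhibitors such as p21 restrain them after DNA damage. Mouse embryonic stem (ES) cells are known for a short G1 phase, with much cyclin E and Cdk2 activity and little D-type cyclin activity.

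The study asked how Cfp1 acts on H3K4me3, a histone mark of active promoters, when genes are induced, and took DNA damage as its example. Cfp1, which Cxxc1 encodes, is a CpG-binding subunit of the Set1 histone H3K4 methyltransferase complex. WT ES cells of the line E14TG2a and Cfp1-/- ES cells, both of strain 129/OLA and grown with serum and LIF, were left untreated or were treated for 6 hours with doxorubicin, a topoisomerase II poison that breaks DNA. Ribosomal RNA was removed from total RNA, and strand-specific libraries were sequenced for 2 biological replicates in each of the 4 groups. The dose is 1 μM in the treatment protocol and in the paper's methods, but 1 mM in the treatment label. The number of mutant clones is not given in the sources used here, and since each genotype is a line of its own, the effects of Cfp1 and of the line cannot be told apart.

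The promoters of 4 genes are shown, chosen by the response of the genes to doxorubicin described below. Ccne1, Cdk2 and Cdk6 are 3 of the 4 genes that fell, and Cdk4 changed least of the kinases. Whether promoter sequence has a part in the response was not tested. The promoter of the other gene that fell, Ccnd1, was not analysed here. Each is the 250 bases before the RefSeq start of the gene, 5′ to 3′ on its own strand. They lie at chr7:38107491-38107740 (minus strand, Ccne1), chr10:128705052-128705301 (minus strand, Cdk2), chr5:3343643-3343892 (plus strand, Cdk6) and chr10:127063285-127063534 (plus strand, Cdk4) in build GRCm38.p6, which is not the build of the count tables. Capitals mark the E-box CACGTG, the site that Myc-type factors bind, and, on either strand, the E2F-like words TTTCCCGC, TTTGGCGC, TTTCGCGC and TTTGCCGC.
Ccne1: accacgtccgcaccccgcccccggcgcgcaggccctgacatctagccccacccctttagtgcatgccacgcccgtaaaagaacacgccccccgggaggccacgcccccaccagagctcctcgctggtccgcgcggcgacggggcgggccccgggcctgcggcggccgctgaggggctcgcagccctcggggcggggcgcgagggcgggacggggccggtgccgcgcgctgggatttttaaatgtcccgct
Cdk2: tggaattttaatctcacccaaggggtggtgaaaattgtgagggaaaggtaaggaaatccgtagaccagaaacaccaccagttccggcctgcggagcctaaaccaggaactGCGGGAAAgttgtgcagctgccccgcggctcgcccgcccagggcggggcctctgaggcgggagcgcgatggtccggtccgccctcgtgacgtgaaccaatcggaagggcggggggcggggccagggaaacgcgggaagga
Cdk6: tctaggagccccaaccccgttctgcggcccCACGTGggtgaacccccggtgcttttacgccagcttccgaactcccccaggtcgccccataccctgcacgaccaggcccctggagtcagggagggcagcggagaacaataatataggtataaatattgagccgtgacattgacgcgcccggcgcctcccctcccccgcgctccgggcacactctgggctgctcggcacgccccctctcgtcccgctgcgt
Cdk4: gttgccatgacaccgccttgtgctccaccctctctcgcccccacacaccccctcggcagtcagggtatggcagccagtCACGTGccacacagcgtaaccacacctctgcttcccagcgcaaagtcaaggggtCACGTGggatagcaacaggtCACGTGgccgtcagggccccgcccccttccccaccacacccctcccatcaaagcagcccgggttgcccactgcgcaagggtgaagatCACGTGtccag

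The Cdk4 promoter held 4 E-boxes and the Cdk6 promoter 1, and the promoters of Ccne1 and Cdk2 held 0. Among 32851 mouse promoter windows of the same length, 6.02% held at least 1 E-box and 0.0213%, or 7 windows, held 4 or more. The Cdk2 promoter held 1 E2F-like word, on the opposite strand, as 1.86% of all windows did with at least 1, and the promoters of Ccne1, Cdk4 and Cdk6 held 0. The cell cycle word TTTGAA (CHR), present on either strand in 16.0% of windows, was in none of these 4. GC boxes, read as GGGCGG on either strand and present in 32.7% of windows, numbered 5 in the Cdk2 promoter, 4 in that of Ccne1, 1 in that of Cdk4 and 0 in that of Cdk6. All 4 promoters were rich in G and C, with 76% for Ccne1, 66% for Cdk6, 64.4% for Cdk4 and 63.2% for Cdk2 against a median of 52.4% over all windows. The ratio of observed to expected CpG was 0.947 for Ccne1, 0.868 for Cdk2, 0.842 for Cdk6 and 0.536 for Cdk4, against a median of 0.373. The 2 RefSeq starts of Ccnd3 had 59.6% and 64.8% G and C, with 0 E-boxes and 0 E2F-like words. Ccnd1, Ccnd2 and Ccne2 were not analysed in this respect.

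In the build of the count tables, NCBIm37, the genes lie at chr7:152115836-152125774 (Ccnd1, minus strand), chr6:127075797-127101066 (Ccnd2, minus), chr17:47642000-47736632 (Ccnd3, plus), chr10:126500590-126504976 (Cdk4, plus), chr5:3343893-3523218 (Cdk6, plus), chr7:38883003-38892553 (Ccne1, minus), chr4:11118498-11131926 (Ccne2, plus) and chr10:128134995-128142107 (Cdk2, minus). Cdk6 spans 179 kb and Ccnd3 94.6 kb, and the other 6 genes span 4.39 kb (Cdk4) to 25.3 kb (Ccnd2). The length of their merged exons runs from 2.25 kb for Ccnd3 to 5.70 kb for Ccnd2. Counts were made over exons on the sense strand, and no member overlaps another gene on its own strand.

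Total counts of the 8 libraries ran from 14880589 to 29422711. Cxxc1 had 616 to 1412 counts in the WT libraries and 1 to 5 in the Cfp1-/- libraries. The 2 technical runs of a library differed by no more than sampling noise in 6 libraries (chi-square over its degrees of freedom 0.998 to 1.05), but gave a ratio of 9.61 in replicate 1 of treated WT cells and of 42.9 in replicate 1 of treated Cfp1-/- cells, where 439 genes of chromosomes 19, X and Y had 0 counts in the second run. No member lies on these chromosomes, and fits without these second runs are given with the limits. Whether markers or genes of the pathway lists lie there was not checked. A lost run lowers the count of such a gene in that library. All 10 ES cell markers were above 3 counts in every library, although their summed normalized count was 71730 to 97946 in untreated and 27609 to 37770 in treated WT cells, and 84116 to 85122 and 32390 to 40264 in Cfp1-/- cells. These sums hide differences between the untreated lines. Nanog, Esrrb, Fgf4 and Utf1 were higher and Pou5f1, Zfp42, Dppa5a and Tdgf1 lower in Cfp1-/- than in WT cells. The summed count of 6 fibroblast markers was 241 to 258 and 558 to 752 in WT cells, and 186 to 237 and 739 to 783 in Cfp1-/- cells, where 2 of the 6 were at 3 counts or fewer. Col1a1 and Pdgfra held most of the sum in treated cells, while Col1a2 and Col3a1 were lower in treated than in untreated WT cells. The sum of 4 mesoderm markers was lower with doxorubicin, at 342 to 458 and 126 to 165 in WT and 287 to 575 and 140 to 175 in Cfp1-/- cells. Mixl1 went the other way in both lines. T was lower in WT cells but higher in Cfp1-/- cells, with 21.3 and 22.8 before and 34.7 and 35.7 after treatment. The sum of 3 trophoblast markers was lower in Cfp1-/- cells, at 265 to 374 against 994 to 1984 in untreated and 131 to 190.0 against 649.7 to 1348 in treated WT cells. Krt18 held most of that sum. Elf5 went the other way at low counts, with 0.849 and 0 in untreated WT and 31.5 and 9.30 in untreated Cfp1-/- cells. The sum of 3 neural markers was 3746 to 4682 and 1992 to 4227 in WT and 2328 to 3169 and 1833 to 1944 in Cfp1-/- cells, and that of 5 primitive endoderm markers 25.0 to 45 and 40.6 to 57.0 in WT and 27.9 to 56.6 and 69.4 to 100.1 in Cfp1-/- cells. Of the neural markers, Pax6 was lower and Tubb3 higher in Cfp1-/- than in WT cells, treated or not. The part of these markers in the results below was not tested. In such bulk RNA, fewer cells in a phase of the cycle and less RNA per cell cannot be told apart.

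**Figure D1:**
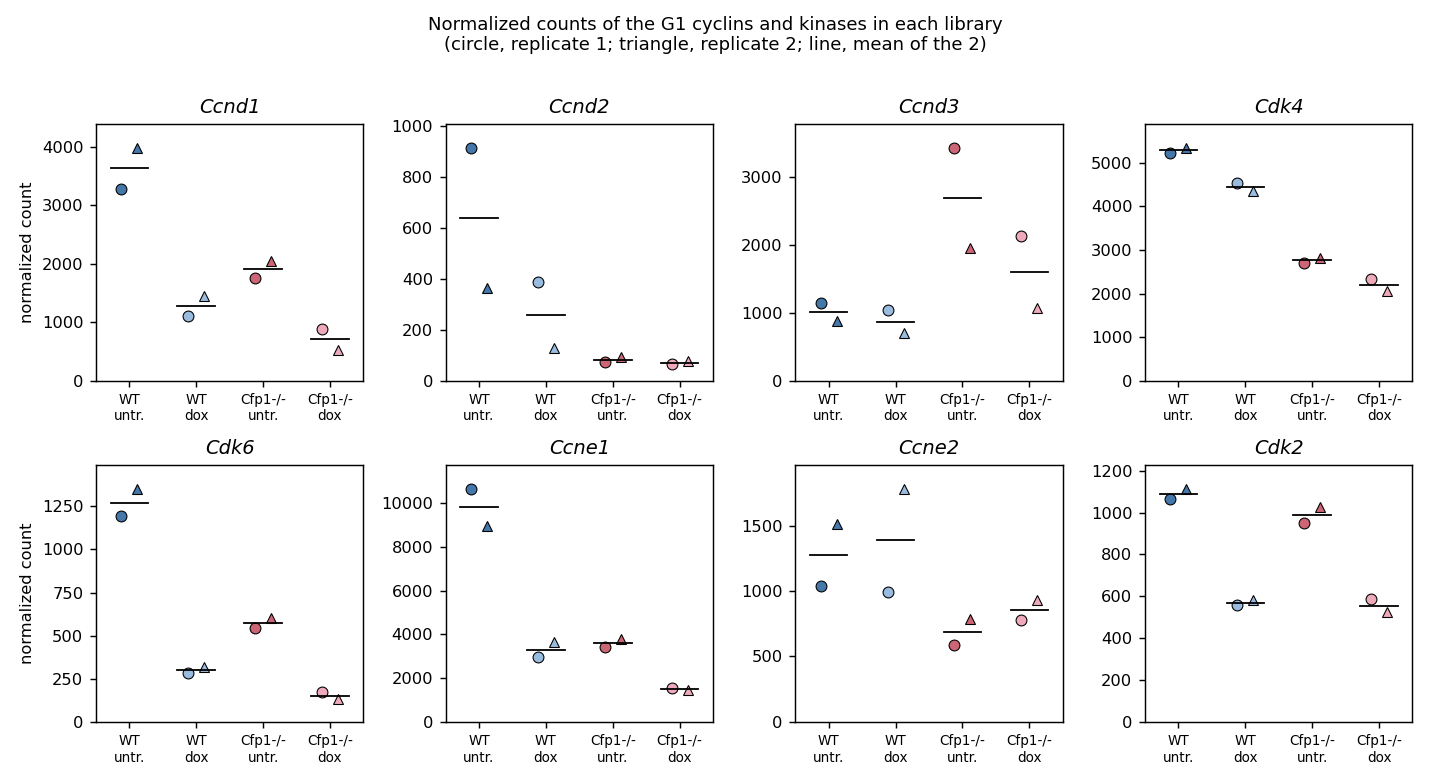
Normalized count of each of the 8 genes (vertical axes, linear and starting at 0) in the 4 groups (horizontal axes); circles are replicate 1, triangles replicate 2 and lines the mean of both. Ccnd1, Ccne1, Cdk2, Cdk4 and Cdk6 are lower in every treated library than in every untreated library of the same line, though Cdk4 did not pass the test. The share of all genes that separate in this way was not computed. For Ccnd3 the Cfp1-/- libraries lie above the WT libraries of the same condition.

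Levels are given per kb of the merged exons of all annotated transcripts, of which Cdk4 has 9 and Ccnd2 has 1. Merged exons can be longer than the transcript that cells make, so orders between genes are approximate. Ccne1 was the most abundant of the 8 in untreated WT cells, at 3689 ± 455 normalized counts per kb (SD, n = 2, as for all levels per kb here). It was also first without the correction for length. Cdk4 followed with 1629 ± 26.4 and Ccnd1 with 948 ± 129. The levels per kb of Cdk2 (448 ± 14.3), Ccnd3 (447 ± 81.9), Ccne2 (364 ± 96.3) and Cdk6 (341 ± 30.6) came next, and neighbours in this order overlapped between replicates. Ccnd2 was lowest, at 112 ± 68.4 per kb. In treated WT cells Cdk4 (1367 ± 39.8 per kb) and Ccne1 (1243 ± 178) led and overlapped, then came Ccne2 (397 ± 160), Ccnd3 (386 ± 109) and Ccnd1 (332 ± 62.0), which overlapped too, and Cdk6 (80.3 ± 5.98) and Ccnd2 (45.2 ± 32.2) were last. Untreated Cfp1-/- cells had Ccne1 first (1360 ± 96.4 per kb), overlapping with Ccnd3 (1198 ± 465), and then Cdk4 (850.2 ± 23.3), Ccnd1 (495 ± 53.0) and Cdk2 (407 ± 22.5), with Ccnd2 again last (14.3 ± 2.35). Treated Cfp1-/- cells were the group in which Ccnd3 stood first (711 ± 335 per kb), overlapping with Cdk4 (678 ± 61.1), while Ccne1 had 565 ± 23.6, Ccnd1 183 ± 64.9, Cdk6 40.4 ± 8.22 and Ccnd2 12.4 ± 1.34. Without the correction for length Cdk4 was first in that group.

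The first comparison asked how WT cells responded to doxorubicin. Of the 8 genes, 4 fell (Ccnd1, Ccne1, Cdk2 and Cdk6), 0 rose and 4 did not pass the test at an adjusted p of 0.05. Over all 15758 genes tested, 21.8% were called lower and 26.5% higher. The median log2 fold change of the 8 genes was -1.08, and that of all genes tested was 0.06. In the values below, replicate 1 comes first and replicate 2 second, log2 fold changes carry their standard error (SE), and each adjusted p comes from the quasi-likelihood test of edgeR, adjusted by the Benjamini-Hochberg method over all genes tested. Whether groups overlap is given as description alone, here and in the later comparisons. The share of all genes whose groups do not overlap was not computed.

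Ccnd1 encodes cyclin D1, which links growth factor signals to Cdk4 and Cdk6. Its normalized counts were 3284 and 3985 in untreated and 1104 and 1441 in treated WT cells. Both treated libraries lay below both untreated ones, and the log2 fold change was -1.47 (SE 0.24, edgeR adjusted p = 0.000828), a level 2.76-fold lower.

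Ccnd2 encodes cyclin D2. It gave 917 and 365 normalized counts in untreated WT cells and 388 and 128 after treatment, so that the groups overlapped because replicate 1 stood well above replicate 2 in both. Its log2 fold change of -1.28 (SE 0.51) did not pass the test (edgeR adjusted p = 0.0615) but did so with the replicate number as a block (edgeR adjusted p = 0.0109). Without replicate 1 of the untreated cells it was -0.46 (edgeR adjusted p = 0.497), and without replicate 1 of the treated cells -2.29 (edgeR adjusted p = 0.00713).

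Ccnd3, the gene of cyclin D3, had 1139 and 878 normalized counts in untreated WT cells and 1043 and 696 in treated ones. The groups overlapped and the log2 fold change was -0.17 (SE 0.36, edgeR adjusted p = 0.721).

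Cdk4, the more abundant of the kinases that D-type cyclins bind, had 5232 and 5353 normalized counts in untreated WT cells and 4534 and 4351 in treated ones. Both treated libraries were lower, but by a log2 fold change of -0.21 (SE 0.12) that did not pass the test (edgeR adjusted p = 0.184). Cdk6, the second kinase of the D-type cyclins, had 1192 and 1353 normalized counts before and 284 and 316 after treatment. These values stood far apart, and its log2 fold change of -2.04 (SE 0.19, edgeR adjusted p = 3.24e-05), a level 4.10-fold lower, was the largest of the 8.

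Ccne1, the gene of cyclin E1, had 10677 and 8964 normalized counts in untreated WT cells and 2972 and 3643 in treated ones. The groups did not overlap, and the log2 fold change was -1.52 (SE 0.15, edgeR adjusted p = 4.22e-05), a level 2.88-fold lower. Ccne2, the gene of the related cyclin E2, had 1035 and 1512 normalized counts in untreated WT cells and 994 and 1783 after treatment. Here the groups overlapped, replicate 2 being the higher in both, and the log2 fold change was 0.17 (SE 0.28, edgeR adjusted p = 0.636).

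Cdk2, the kinase of the E-type cyclins, had 1065 and 1114 normalized counts in untreated WT cells and 557 and 582 in treated ones. Replicates lay close together and the groups far apart, with a log2 fold change of -0.89 (SE 0.14, edgeR adjusted p = 0.000794), or 1.85-fold lower.

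With libraries scaled by total counts alone, the median log2 fold change of all genes moved by 0.31 in WT cells and by 0.21 in Cfp1-/- cells, and the share of calls that were higher moved from 54.9% to 75.7% and from 57.0% to 71.9%. The falls of Ccnd1, Ccne1, Cdk2 and Cdk6 passed the test under this scaling in both lines, and the largest of their edgeR adjusted p values was 0.00812, for Cdk2 in WT cells. The values of Cdk4 and Ccnd3 in WT cells and of Ccnd2 in Cfp1-/- cells, which passed under neither scaling, changed sign.

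The second comparison was the same treatment in Cfp1-/- cells. Again 4 of the 8 genes fell, Ccnd1, Ccne1, Cdk2 and Cdk6, and 0 rose, where 21% of all genes tested were called lower and 27.8% higher. The median log2 fold change of the 8 genes was -0.75, against 0.01 over all genes tested.

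Among the D-type cyclins, Ccnd1 had 1756 and 2043 normalized counts in untreated and 879 and 527 in treated Cfp1-/- cells, with no overlap and a log2 fold change of -1.39 (SE 0.24, edgeR adjusted p = 0.00119). Ccnd2 was the lowest of the 8 genes, with 72.3 and 91.3 normalized counts before and 65.4 and 76.2 after treatment, from raw counts of 64 to 108. Its groups overlapped, and its log2 fold change was -0.17 (SE 0.55, edgeR adjusted p = 0.825). Ccnd3 had 3442 and 1959 normalized counts before and 2136 and 1069 after treatment, a spread between replicates wide enough that the groups overlapped. The log2 fold change of Ccnd3, -0.71 (SE 0.36), did not pass the test (edgeR adjusted p = 0.125), but did with the replicate block (-0.73, SE 0.15, edgeR adjusted p = 0.00147) and without replicate 1 of the treated cells (-1.32, edgeR adjusted p = 0.0256). It was -0.26 without replicate 1 of the untreated cells (edgeR adjusted p = 0.626) and -0.29 without replicate 2 of the treated cells (edgeR adjusted p = 0.569).

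Among the kinases, Cdk6 had 546 and 601 normalized counts in untreated and 173 and 129 in treated Cfp1-/- cells, a log2 fold change of -1.88 (SE 0.19, edgeR adjusted p = 6.00e-05) or 3.69-fold lower. As in WT cells this was the largest fall of the 8 and the groups stood apart. Cdk2 had 950.3 and 1028 normalized counts before and 585 and 523 after, a log2 fold change of -0.79 (SE 0.14, edgeR adjusted p = 0.00153). Cdk4 had 2709 and 2816 before and 2342 and 2061 after, both treated libraries being lower. Its log2 fold change of -0.28 (SE 0.12) did not pass the test (edgeR adjusted p = 0.0763) but was just past it with the replicate block (edgeR adjusted p = 0.0482) and with DESeq2's size factors (edgeR adjusted p = 0.0457).

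Of the E-type cyclins, Ccne1 had 3439 and 3801 normalized counts in untreated and 1548 and 1459.5 in treated Cfp1-/- cells. The groups did not overlap, and the log2 fold change was -1.22 (SE 0.15, edgeR adjusted p = 0.000157), 2.34-fold lower. Ccne2 had 591 and 783 before and 776 and 928 after. It was the higher after treatment in both replicates, but the groups overlapped and the log2 fold change of 0.35 (SE 0.28) did not pass the test (edgeR adjusted p = 0.328).

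**Figure D2:**
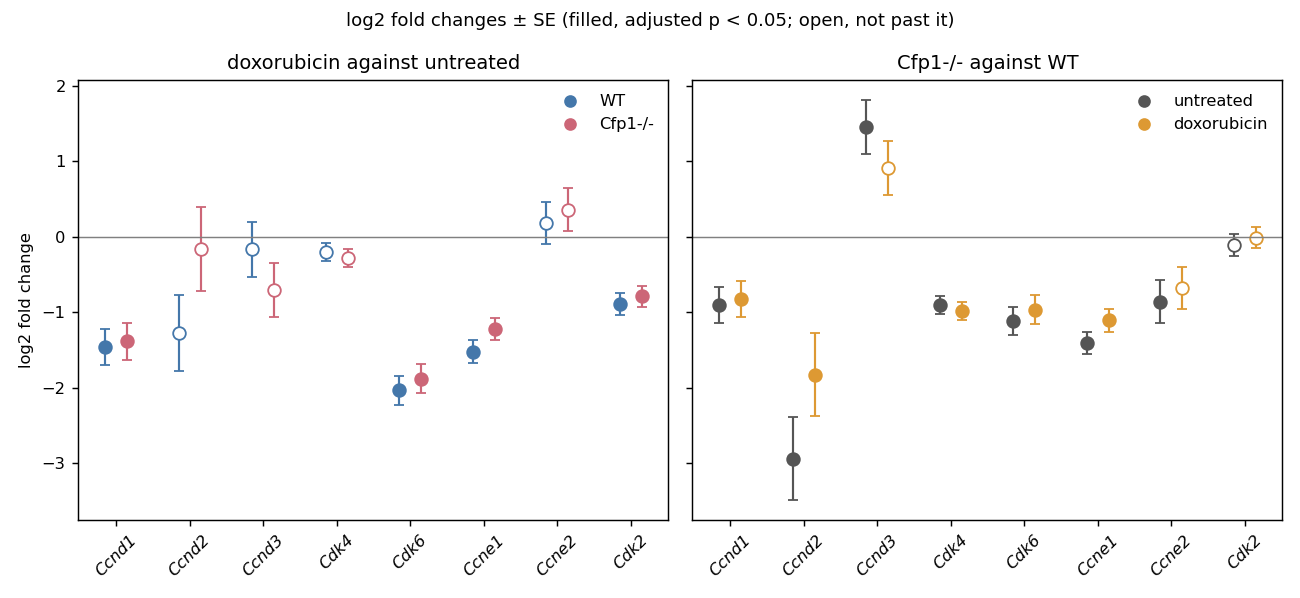
log2 fold change (vertical axis) of each gene (horizontal axis) with doxorubicin in each line (left) and in Cfp1-/- against WT cells under each condition (right). Bars are the SE, filled points passed an adjusted p of 0.05 and open points did not. On the left the WT and Cfp1-/- points of Cdk6 lie at -2.04 and -1.88, and on the right Ccnd3 is the gene with values above 0.

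Whether the responses of the lines differed was tested as an interaction. Of the 8 genes 0 were called, as against 0.235% of all genes tested. An unadjusted p under 0.05 was found for 0 of the 8 and for 1671 of all 15758 genes tested. The difference in log2 response, Cfp1-/- minus WT, was 0.08 for Ccnd1 (SE 0.33), 0.10 for Cdk2 (SE 0.20), -0.08 for Cdk4 (SE 0.17), 0.15 for Cdk6 (SE 0.26), 0.18 for Ccne2 (SE 0.40) and 0.30 for Ccne1 (SE 0.21). It was least certain for the other D-type cyclins, at 1.11 for Ccnd2 (SE 0.75) and -0.54 for Ccnd3 (SE 0.50). With single libraries left out it ran from 0.25 (without replicate 1 of untreated WT cells) to 2.11 (without replicate 1 of treated WT cells) for Ccnd2, and from -1.14 (without replicate 1 of treated Cfp1-/- cells) to -0.086 (without replicate 1 of untreated Cfp1-/- cells) for Ccnd3. With the replicate block 1.54% of all genes were called in this test and again 0 of the 8, with Ccnd3 at an unadjusted p of 0.0285 (edgeR adjusted p = 0.252), and DESeq2's Wald test also called 0 of the 8. With 2 replicates a group, these values do not show that the responses are alike.

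The next comparison set Cfp1-/- against WT cells, first untreated. Here 6 of the 8 genes were lower in Cfp1-/- cells (Ccnd1, Ccnd2, Ccne1, Ccne2, Cdk4 and Cdk6), Ccnd3 alone of the 8 was higher, and Cdk2 did not pass the test. Of all genes tested 16.1% were called lower and 17.9% higher, and the median log2 difference was -0.91 for the 8 genes and 0.01 over all. Total count scaling moved the median of all genes by 0.19 and the share of calls that were higher from 52.7% to 70.5%. Under it the 7 calls held, but for Ccne2 (edgeR adjusted p = 0.0962).

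Ccnd2 differed most, from 917 and 365 normalized counts in untreated WT cells to 72.3 and 91.3 in Cfp1-/- cells. The log2 difference was -2.94 (SE 0.54, edgeR adjusted p = 0.00339), or 7.68-fold lower, and -2.11 (edgeR adjusted p = 0.0148) without replicate 1 of the WT cells. Ccnd1 was lower by a log2 difference of -0.91 (SE 0.23, edgeR adjusted p = 0.0152), which did not pass without replicate 2 of the WT cells (edgeR adjusted p = 0.0797) or replicate 1 of the Cfp1-/- cells (edgeR adjusted p = 0.104). Ccnd3 went the other way, from 1139 and 878 to 3442 and 1959 normalized counts with no overlap, a log2 difference of 1.45 (SE 0.36, edgeR adjusted p = 0.0131). It too did not pass without the same WT library (edgeR adjusted p = 0.0715) or the same Cfp1-/- library (edgeR adjusted p = 0.0957).

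The kinases of the D-type cyclins were both lower, Cdk4 by a log2 difference of -0.91 (SE 0.12, edgeR adjusted p = 0.00071) and Cdk6 with -1.12 (SE 0.18, edgeR adjusted p = 0.00182). Ccne1 was 2.66-fold lower, a log2 difference of -1.41 (SE 0.15, edgeR adjusted p = 0.000229). These 3 calls held with each library left out in turn. Ccne2 was lower, at -0.86 (SE 0.28, edgeR adjusted p = 0.0400), a call lost without replicate 2 of WT cells (edgeR adjusted p = 0.226), without replicate 1 or 2 of the Cfp1-/- cells (0.230 and 0.0625) and without replicate 1 or 2 of the treated Cfp1-/- cells (0.0578 and 0.0584). Cdk2 had 1065 and 1114 normalized counts in WT and 950.3 and 1028 in Cfp1-/- cells, a log2 difference of -0.11 (SE 0.14, edgeR adjusted p = 0.567) whose sign turned under total count scaling.

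Among treated cells 5 of the 8 genes were lower in Cfp1-/- than in WT cells (Ccnd1, Ccnd2, Ccne1, Cdk4 and Cdk6) and 0 were higher, where 10.8% of all genes tested were called lower and 15.1% higher. The median log2 difference was -0.90 for the 8 genes and 0.02 over all. With the replicate block, which called 16.2% of all genes lower and 20.5% higher, the 8 genes gave 6 lower and 1 higher, as Ccne2 (edgeR adjusted p = 0.00784) and Ccnd3 (edgeR adjusted p = 0.00135) passed. This comparison shares its treated libraries with the responses above, so it is no independent evidence. The share of calls that were higher was 58.3%, and 69.2% under total count scaling.

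Cdk4 was lower by a log2 difference of -0.99 (SE 0.12, edgeR adjusted p = 0.000859) and Ccne1 at -1.11 (SE 0.15, edgeR adjusted p = 0.0012), and both calls held with each library left out. Cdk6 was lower, at -0.97 (SE 0.19, edgeR adjusted p = 0.00702), but without replicate 2 of the treated Cfp1-/- cells the edgeR adjusted p was 0.0574. Ccnd1 was lower, at -0.83 (SE 0.24, edgeR adjusted p = 0.0307), a call lost without replicate 2 of treated WT cells (edgeR adjusted p = 0.156) or of treated Cfp1-/- cells (edgeR adjusted p = 0.172). Ccnd2 was lower, at -1.83 (SE 0.55, edgeR adjusted p = 0.0351), but at -0.83 without replicate 1 of treated WT cells (edgeR adjusted p = 0.251) and at -2.43 without replicate 2 (edgeR adjusted p = 0.0108), and the call was also lost without replicate 1 of the untreated Cfp1-/- cells (edgeR adjusted p = 0.0503) and without replicate 1 or 2 of the treated ones (0.157 and 0.136). Ccnd3, at 0.91 (SE 0.36), and Ccne2, at -0.68 (SE 0.28), did not overlap between the lines yet missed the threshold (edgeR adjusted p = 0.0911 and 0.103). Ccnd3 passed without replicate 2 of treated Cfp1-/- cells (edgeR adjusted p = 0.0446) and was 0.31 without replicate 1 (edgeR adjusted p = 0.599), and Ccne2 passed without replicate 1 of treated WT cells (-1.05, edgeR adjusted p = 0.02) and was -0.20 without replicate 2 (edgeR adjusted p = 0.63). Cdk2 overlapped between the lines, at -0.01 (SE 0.14, edgeR adjusted p = 0.956).

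The make-up of each family follows from these values and was described per kb of exon, with no test. The shares depend on the merged exon lengths, which are the same in all groups. Ccne1 was 93.1% and 88.6% of the summed E-type cyclin level in untreated and 79.7% and 72.8% in treated WT cells, and 88.4% and 86.4% and then 72.4% and 67.4% in Cfp1-/- cells. Its share was thus lower in all 4 treated libraries than in all 4 untreated ones. The summed level per kb of both E-type cyclins was 4054 ± 359 (SD, n = 2) and 1639.8 ± 338 in WT cells and 1556 ± 135 and 809 ± 7.22 in Cfp1-/- cells.

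Cdk6 was 16.5% and 18.0% of the summed level of Cdk4 and Cdk6 in untreated WT cells and 14.9% and 15.7% in untreated Cfp1-/- cells. After treatment it was 5.17% and 5.94% in WT and 6.02% and 5.17% in Cfp1-/- cells. The 4 treated libraries lay together and below the 4 untreated ones, whichever the line.

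Among the D-type cyclins, Ccnd1 was the larger part in untreated WT cells, with 56.3% and 69.6%, against 33.2% and 26.1% for Ccnd3. In treated WT cells Ccnd1 made up 35.2% and 53.2% and Ccnd3 56.5% and 43.7%, so that the order differed between the replicates. Ccnd3 led in all 4 Cfp1-/- libraries, with 76.4% and 61.3% before and 79.7% and 75.9% after treatment. Ccnd2 was at most 10.6% in a WT library and at most 2.14% in a Cfp1-/- library.

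**Figure D3:**
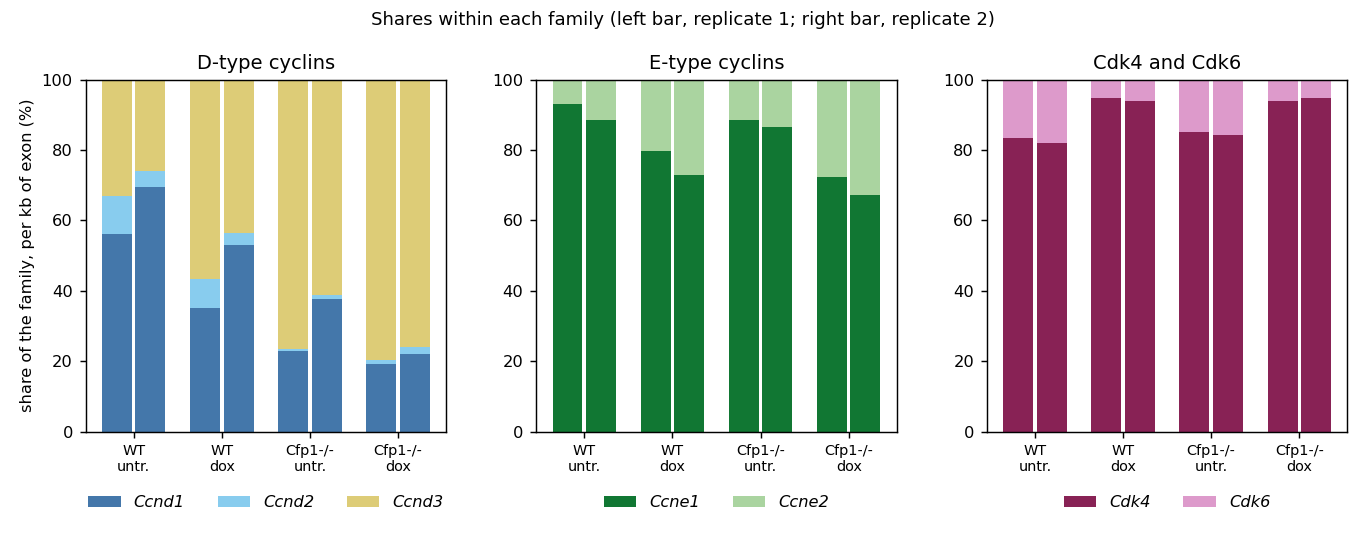
Share of each gene in the summed level of its family (vertical axes, percent, per kb of exon) in the 4 groups; the left bar of a pair is replicate 1 and the right bar replicate 2. Ccne1 and Cdk6 have smaller shares in treated than in untreated cells of both lines, and Ccnd3 has at least 61.3% of the D-type level in Cfp1-/- libraries.

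Other genes of the pathway were counted in 7 lists, to be read against the shares of all genes tested, 26.5% higher and 21.8% lower in WT and 27.8% higher and 21% lower in Cfp1-/- cells. CDK inhibitors bind and block these kinases or their complexes, and 6 of 7 were tested. In WT cells 2 rose and 1 fell, and in Cfp1-/- cells 3 rose and 1 fell, or 33.3% and 16.7% and then 50% and 16.7% of those tested. Cdkn1a, which encodes p21 and is a target of p53, had 131 and 226 normalized counts in untreated and 1805 and 1655 in treated WT cells, and 338 and 263 and then 1294 and 1165 in Cfp1-/- cells. Its log2 fold changes were 3.33 (SE 0.26, edgeR adjusted p = 1.30e-05) and 2.07 (SE 0.24, edgeR adjusted p = 0.000124), and their difference of -1.26 (SE 0.34) did not pass the test (edgeR adjusted p = 0.229). It did with DESeq2's Wald test (-1.25, adjusted p = 0.0357) and with the replicate block without the second runs (-1.27, edgeR adjusted p = 0.039), and with the block alone the edgeR adjusted p was 0.0703. Cdkn1b, which encodes p27, fell in both lines, with log2 fold changes of -1.72 (SE 0.24, edgeR adjusted p = 0.000313) and -2.45 (SE 0.26, edgeR adjusted p = 6.64e-05). Cdkn2b, which encodes the Cdk4 and Cdk6 inhibitor p15, rose by 2.63 (SE 0.23) in WT and 2.68 (SE 0.23) in Cfp1-/- cells (edgeR adjusted p = 2.21e-05 and 2.26e-05).

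The targets of these kinases, the pocket proteins, with the E2F and DP factors, gave 4 rises and 4 falls among 13 genes tested in each line, each 30.8%, close to the shares of all genes. Rbl2, which encodes p130, had 527 and 378 normalized counts in untreated and 6180 and 5032 in treated WT cells, a log2 fold change of 3.67 (SE 0.20, edgeR adjusted p = 2.76e-06), and 3.11 (SE 0.19, edgeR adjusted p = 5.46e-06) in Cfp1-/- cells. Rb1, the retinoblastoma gene, rose by 2.77 (SE 0.19) and 2.2 (SE 0.19) on the log2 scale (edgeR adjusted p = 7.69e-06 and 2.22e-05). E2f8, a repressor of the family, fell, at log2 fold changes of -1.58 (SE 0.30) and -1.17 (SE 0.30) (edgeR adjusted p = 0.002 and 0.00977), the second call being lost without replicate 1 of untreated or replicate 2 of treated Cfp1-/- cells (edgeR adjusted p = 0.0738 and 0.0831). Tfdp2, a partner of E2F factors, fell, at log2 fold changes of -0.62 (SE 0.12) and -0.35 (SE 0.12) (edgeR adjusted p = 0.00196 and 0.0327), but under total count scaling it passed in neither line (edgeR adjusted p = 0.061 and 0.4), nor in Cfp1-/- cells without untreated replicate 2 or treated replicate 1 or 2 (edgeR adjusted p = 0.15, 0.109 and 0.0901). Under that scaling 1 of the 4 falls of the list passed in WT and 2 in Cfp1-/- cells. Without single Cfp1-/- libraries, untreated replicate 1 or 2 or treated replicate 2, the list's falls in that line numbered 2, 2 and 1.

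Among the 8 genes that activate CDKs or set their phosphorylation, 4 fell and 1 rose in WT cells (50% and 12.5%) and 6 fell and 0 rose in Cfp1-/- cells (75% lower). Wee1, an inhibitory kinase of CDKs, fell, at log2 fold changes of -1.36 (SE 0.18) and -1.48 (SE 0.17) (edgeR adjusted p = 0.000218 and 0.000131), and Mnat1, a subunit of the CDK-activating kinase, at -1.02 (SE 0.13) and -0.75 (SE 0.13) (edgeR adjusted p = 0.000203 and 0.00121). Pkmyt1, which like Wee1 inhibits CDKs, rose by 0.93 (SE 0.22) in WT cells (edgeR adjusted p = 0.00678) and was at 0.43 (SE 0.22) in Cfp1-/- cells (edgeR adjusted p = 0.128, or 0.0354 under total count scaling). Under total count scaling there were 2 rises in place of 1 among these 8 genes in WT cells and 2 in place of 0 in Cfp1-/- cells, which also had 1 without replicate 1 of the untreated cells. Of the 5 later cyclins and their kinase, 4 fell and 1 rose in each line, 80% and 20%. Ccnb1, the mitotic cyclin B1, fell, at log2 fold changes of -1.37 (SE 0.18) and -1.11 (SE 0.18) and Cdk1, its kinase, at -1.07 (SE 0.16) and -1.15 (SE 0.17), with edgeR adjusted p values of 0.000216, 0.000738, 0.000594 and 0.00043. Ccna1, the germ line cyclin A1, rose by 1.89 (SE 0.44) and 2.24 (SE 0.36) (edgeR adjusted p = 0.00589 and 0.00077), from 6.8 and 7.3 normalized counts in untreated WT cells.

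Of 13 genes for the turnover of G1 cyclins and p27, 2 rose and 4 fell in WT and 2 rose and 5 fell in Cfp1-/- cells, or 15.4% and 30.8% and then 15.4% and 38.5%. Skp2, which marks p27 for degradation, fell, at log2 fold changes of -1.53 (SE 0.14) in WT and -1.51 (SE 0.14) in Cfp1-/- cells (edgeR adjusted p = 3.24e-05 and 4.05e-05), and Usp28, a deubiquitinase, at -1.34 (SE 0.13) and -1.14 (SE 0.13) (edgeR adjusted p = 3.43e-05 and 8.85e-05). Fbxw7, which marks cyclin E for degradation, rose by 1.39 (SE 0.12) and 1.08 (SE 0.12) (edgeR adjusted p = 2.56e-05 and 0.000101), and Usp2, a deubiquitinase of cyclin D1, by 2.59 (SE 0.21) and 2.52 (SE 0.20) (edgeR adjusted p = 1.47e-05 and 1.89e-05).

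Of 20 cyclins and kinases with roles outside G1, 3 rose and 8 fell in WT cells (15% and 40%) and 3 rose and 9 fell in Cfp1-/- cells (15% and 45%). The counts for Cfp1-/- cells include treated replicate 1, whose second run lost genes of chromosomes 19, X and Y. List genes on these chromosomes were not set apart. Ccng1, the p53 target cyclin G1, rose by 1.5 (SE 0.13) and 1.16 (SE 0.13) on the log2 scale (edgeR adjusted p = 2.77e-05 and 0.000116). Cdk19, a kinase of the Mediator complex, rose by 0.85 (SE 0.15) in WT cells (edgeR adjusted p = 0.00114) and was at 0.36 (SE 0.15) in Cfp1-/- cells (edgeR adjusted p = 0.066, or 0.0411 with the replicate block and 0.00834 under total count scaling). Cdk17 fell, at log2 fold changes of -1.58 (SE 0.14) and -1.17 (SE 0.14) (edgeR adjusted p = 3.00e-05 and 0.000164) and Cdk12, which phosphorylates RNA polymerase II, at -0.99 (SE 0.17) and -0.85 (SE 0.17) (edgeR adjusted p = 0.00109 and 0.00247). Under total count scaling the rises in WT cells numbered 5 and the falls in Cfp1-/- cells 5, and without replicate 2 of treated Cfp1-/- cells those falls also numbered 5 and without replicate 2 of untreated Cfp1-/- cells the rises numbered 1.

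Of 16 E2F-responsive genes of S phase, 9 fell and 1 rose in WT cells (56.2% and 6.25%) and 11 fell and 1 rose in Cfp1-/- cells (68.8% and 6.25%), with median log2 fold changes of -0.44 and -0.49. Under total count scaling these falls numbered 0 and 6, without replicate 2 of untreated or replicate 1 of treated WT cells they numbered 2 and 5 in WT cells, and without replicate 2 of treated Cfp1-/- cells 6 in that line. Pola1, a subunit of DNA polymerase alpha, was at -0.73 (SE 0.17) and -0.93 (SE 0.17) (edgeR adjusted p = 0.00575 and 0.00156), and Mcm5, a subunit of the replicative helicase, at -0.64 (SE 0.12) and -0.61 (SE 0.12) (edgeR adjusted p = 0.00209 and 0.00274), but neither passed in WT cells under total count scaling (edgeR adjusted p = 0.078 and 0.051). Treated Cfp1-/- cells had 2349 and 3409 normalized counts of Pola1, and replicate 1 is the library whose second run lost genes. The size of the Pola1 fall without that run is not given here, so its larger value in Cfp1-/- cells is uncertain. Rrm2, a subunit of ribonucleotide reductase, rose by 0.58 (SE 0.18) and 0.66 (SE 0.18) (edgeR adjusted p = 0.0208 and 0.0118), calls lost without replicate 1 of untreated or treated WT cells (edgeR adjusted p = 0.145 and 0.0777) and without untreated replicate 2 or treated replicate 1 of Cfp1-/- cells (edgeR adjusted p = 0.0936 and 0.103).

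**Figure D4:**
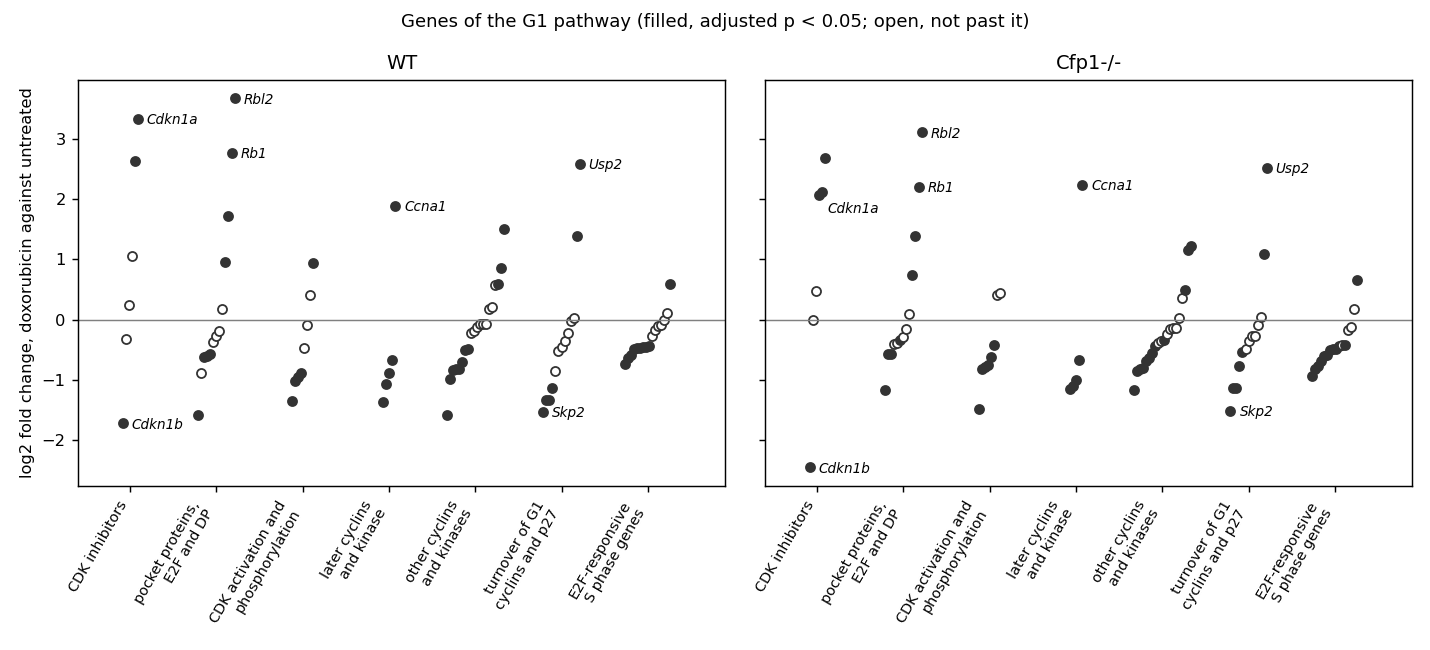
log2 fold change with doxorubicin (vertical axis) of each tested gene of the 7 pathway lists (horizontal axis), in WT (left) and Cfp1-/- cells (right); filled points passed an adjusted p of 0.05 and open points did not. Cdkn1a, Rb1 and Rbl2 lie above 2 in both lines, and Cdkn1b and Skp2 below -1.5.

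Over the 8 libraries, the log2 normalized counts of some members ran closely together. These are descriptions over libraries that share their treatment and line, without a test. The values given are the highest and the lowest among all pairs of members, and no share over all gene pairs was computed. Each member had a higher r with genes outside the 8, named below, than with any other member. Pearson's r was 0.988 for Ccnd1 and Cdk6, 0.961 for Ccne1 and Cdk6, 0.953 for Ccnd1 and Ccne1 and 0.925 for Cdk2 and Cdk6. It was -0.924 for Ccnd3 and Ccne2, which differed in opposite ways both between the lines and between the replicates of a group. In untreated Cfp1-/- against WT cells, Ccnd3 had a log2 difference of 1.45 and Ccne2 of -0.86. Replicate 1 was above replicate 2 in all 4 groups for Ccnd3 and below it in all 4 groups for Ccne2.

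Among the 9499 genes whose normalized counts averaged 200 or more, those most like each member by the same measure were Isg20l2 (r = 0.999) and Skp2 (0.998) for Cdk6, Rbm39 (0.997) and Hist1h2ae (0.997) for Cdk2, Tra2b (0.996) and Nup54 (0.995) for Ccnd1, and Gm10130 (0.996) and Dtwd2 (0.995) for Ccne1. For Cdk4 they were Gm9781 (0.992) and Eef1g (0.991), for Ccnd2 AU041133 (0.989) and Prdm15 (0.980), for Ccnd3 Plekhg3 (0.985) and Nfatc2ip (0.982), and for Ccne2 Cdc34 (0.975) and H2-K1 (0.971). Histone, H2 and predicted (Gm) genes can share sequence with close relatives, so their counts are less certain. With TMM log2 CPM in place of normalized counts 12 of these 16 genes were named again, 1 of 2 for Ccnd1, Ccne2, Cdk2 and Cdk4 and 2 of 2 for the other members.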

How the data were processed

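The authors aligned paired-end reads of strand-specific, rRNA-depleted libraries to NCBIm37 (mm9) with STAR (2.2.1 in the submitters' processing notes) and counted reads on exons of Ensembl release 67 genes with HTSeq-count, stranded, in union mode. The deposited raw counts, 1 column for each technical run, were summed to 8 biological libraries. The deposited normalized counts, a signal per biological replicate, equal these sums divided by a DESeq size factor. Tests used edgeR 4.0.16 in R 4.3.3 (filterByExpr, TMM, 1 coefficient per group, then glmQLFit, glmQLFTest and Benjamini-Hochberg), with SE derived from the F statistic. All 15758 genes passing the filter were tested. Exon lengths came from the GENCODE annotation of NCBIm37 and promoters from RefSeq (GRCm38.p6).

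Alternatives were other size factors, total count scaling, DESeq2 1.42.0, no filter, the replicate block, 2-group fits, other technical runs, each library left out, and the study's limits of 2.5-fold and a mean of 200 counts. Same-numbered replicates deviated together in all 6 pairs of groups (r = 0.184 to 0.610). The main fit ignored this pairing, and only the fits with a replicate block used the replicate numbers. What they share is stated in neither the labels nor the paper. Nothing says whether replicates were separate cultures, so p-values measure the spread between these samples. The scripts were tested on simulated data. The members and lists were chosen with earlier results of these data known. All 8 members were named, and at most 4 genes of each list, its 2 largest called rises and falls in WT cells, plus the 2 genes most like each member.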

Additional observations from a re-analysis of the deposited data

How the results depend on the processing

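Fold changes of the 8 genes were recomputed 704 times in all, over 5 comparisons and the alternatives, and 626 kept direction and call, 29 lost the call, 23 gained it and 26 changed sign, none of the 26 from a called value. The cause of these changes was not tested. The 704 include fits without a library from outside the groups compared, which hardly move a fold change and so are weak checks of direction. Without replicate 1 or 2 of untreated Cfp1-/- cells, the WT response of Ccnd1 was -1.465 and -1.469, against -1.467 with all libraries. Ccnd2 in Cfp1-/- cells had the fewest counts of the 8 genes, and the SE of its response there was 0.55, or 0.28 with only these 2 groups fitted.

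Under total count scaling the log2 fold changes of Ccnd3 (0.14) and Cdk4 (0.11) in treated WT cells, of Ccnd2 in treated Cfp1-/- cells (0.048), of Cdk2 between the lines (0.081 untreated and 0.078 treated), and the response differences of Ccnd1 (-0.029) and Cdk2 (-0.0035) turned. Genes called lower then numbered 1836 (response of WT cells), 2057 (response of Cfp1-/- cells) and 1610 (untreated lines). Cdk2 between the treated lines also turned without the second runs (0.029), with first runs alone (0.079) and, chosen after seeing the data, with the replicate block without these runs (0.029).

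With the replicate block, 243 genes had a response difference (387 also without the second runs), and 2558 (2700) were lower between treated lines, where 1 of the 8 genes was higher. DESeq2's Wald test and the fit with no filter gave 216 and 133 response differences, and each 1 of the 8 higher between treated lines. The block changed no call of a member but those given above.

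By the study's limits, genes called higher and lower were 804 and 442 (response of WT cells), 847 and 352 (response of Cfp1-/- cells), 287 and 238 (untreated lines) and 251 and 161 (treated lines), and members called lower 3, 2, 2 and 0.

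With each library left out, members called lower ranged from 4 to 5 in both responses, 4 to 6 (untreated lines) and 2 to 5 (treated lines, 2 without replicate 2 of treated Cfp1-/- cells), and members higher from 0 to 1 between lines. All genes called ranged from 3348 to 4103 higher and 2657 to 3306 lower (response of WT cells), 3177 to 4502 and 2055 to 3556 (Cfp1-/- cells), 1785 to 2951 and 1234 to 2673 (untreated lines), 1119 to 2279 and 703 to 1831 (treated lines), and 0 to 13 with a response difference. Log2 fold changes that changed sign ranged from -0.49 to 0.086 (Ccnd3, WT response), -0.32 to 0.53 (Ccne2, WT response) and -0.11 to 0.072 (Cdk2, treated lines), and the response differences from -0.35 to 0.41 (Ccnd1), -0.18 to 0.66 (Ccne2), -0.00036 to 0.18 (Cdk2), -0.19 to 0.019 (Cdk4) and -0.086 to 0.36 (Cdk6).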
